A study of Mus musculus with 4 samples.

Results

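The comparison described here sets N2A cells with a knockdown of both Ptbp1 and Ptbp2 against control N2A cells, which are 2 of the 4 libraries of the study. The members were chosen by the knockdown that the labels give: 1 library of cells transfected with shRNAs against ptbp1 and ptbp2 together (double knockdown) and 1 library of cells with a control shRNA. N2A is a mouse neuroblastoma line, and in both groups DNA and lipid were mixed with suspended cells for 5 h before the cells were grown in plates for 3 d. The other 2 libraries, with a knockdown of ptbp1 alone or of ptbp2 alone, are given beside the results and share the same control library, so that their differences from control are not independent of those of the double knockdown. RNA was sequenced strand-specifically, and each group is 1 transfection of 1 cell line, so no spread between replicates exists, no test across samples was run, and all intervals below cover counting error only. Reads without molecular identifiers are not independent molecules, and the true counting error is therefore larger than these intervals.

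Polypyrimidine tract-binding proteins bind stretches of C and U in and around exons and act mostly as repressors of exon inclusion. Ptbp1 is made in most dividing cells, while its paralogue Ptbp2 is made mainly in neurons, and Ptbp1 keeps Ptbp2 low by promoting the skipping of a Ptbp2 exon whose loss shifts the reading frame. Because both proteins act on many of the same exons, the loss of Ptbp1 alone leaves a Ptbp2 level that can stand in for it.

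Gene levels are given as CPM, counts per M reads, from unique exons of a fixed exon list, scaled to the control library by the median of ratios, and set beside FPKM rescaled within each library. Exon reads numbered 256.18 M in the double knockdown and 256.9 M in control, and junction reads 72.8 M and 74.29 M. Of 21 neuroblastoma and neural markers, 16 reached 1 CPM in either library, with 1 past 2-fold higher (Ddc) and 1 lower (Stmn2). Over all genes that reached 1 CPM in either library, 1.39% were past 2-fold higher and 1.48% lower. Among the 16, Chgb (735 CPM in the double knockdown, 795 CPM in control) and Elavl4 (353 and 373 CPM) were abundant in both libraries. Of 35 markers of fibroblasts, glia, immune, epithelial, endothelial and muscle cells, 5 reached 1 CPM in either library. Of these 5, only the myosin gene Myh3 was above 5 CPM, with 186 CPM in the double knockdown and 199 CPM in control, and the muscle regulators Myod1 and Myog were at or near 0 in both. In these bulk samples a smaller number of cells that use a gene and less of its RNA per cell cannot be told apart.

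Both targets were lower than in control, Ptbp1 by more than Ptbp2. Ptbp1 had 133 CPM in the double knockdown, 174 CPM in the Ptbp1 knockdown, 674 CPM in the knockdown of Ptbp2 and 598 CPM in control, so the double knockdown kept 22.2% of control (95% interval 22 to 22.5). Ptbp2 had 54.1 CPM in the double knockdown, 250 CPM in the Ptbp1 knockdown, 34.1 CPM in the knockdown of Ptbp2 and 129 CPM in control. The double knockdown thus held 42.0% of the control level of Ptbp2 (41.2 to 42.9) and did not show the higher Ptbp2 level of the Ptbp1 knockdown. Ptbp3, the third member of the family, had 74.4 CPM in the double knockdown, 74.5 and 83.2 CPM in the Ptbp1 and Ptbp2 knockdowns and 140 CPM in control, 53% of control in the double knockdown. By rescaled FPKM the double knockdown and control values were 36.8 and 149 for Ptbp1, 20.6 and 35.2 for Ptbp2, and 16.5 and 29.0 for Ptbp3. Among RNA-binding partners and relatives, Matr3 (matrin 3) had 609 CPM in the double knockdown and 519 CPM in control, Raver1 had 113 and 138 CPM, and Hnrnpl had 285 and 392 CPM.

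A gene was called when its exon reads differed at least 2-fold on the log2(CPM + 0.1) scale and reached 1 CPM in either library. Of 10615 genes so tested, 148 (1.39%) were higher in the double knockdown and 157 (1.48%) were lower. The split depended on the scaling and on low genes: with total exon reads as the scale it was 247 higher and 87 lower, and with a pseudocount of 1 it was 53 higher and 115 lower. Past 2-fold in rescaled FPKM as well were 40 higher genes (0.377%) and 54 lower genes (0.509%), and the genes named next come from these. Each of the 15 that ranked first in either direction differed in the same direction over the first and the last exons of the gene.

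The higher genes included a SNARE protein that joins synaptic vesicles to the plasma membrane. Vamp2, the vesicle SNARE (synaptobrevin), had 109 CPM in the double knockdown, 102 and 26.3 CPM in the Ptbp1 and Ptbp2 knockdowns and 38.3 CPM in control, a ratio of 2.84 (2.78 to 2.91). For Vamp2 the double knockdown stood next to the Ptbp1 knockdown, and the Ptbp2 knockdown stood below control. Mcam, a cell adhesion molecule of the immunoglobulin family, showed 88.2 CPM in the double knockdown, 118 and 41.5 CPM in the single knockdowns of Ptbp1 and Ptbp2, and 32.6 CPM in control.

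Other higher genes had other orders among the libraries. Ankrd45, which encodes a protein with ankyrin repeats, led the list at 51.1 CPM in the double knockdown, 21.5 CPM in the Ptbp1 knockdown, 35.9 CPM in the knockdown of Ptbp2 and 13.4 CPM in control (ratio 3.82, 3.68 to 3.96). Socs2, a feedback inhibitor of growth hormone and cytokine receptors, had 71.9 CPM in the double knockdown, 31.3 and 88.0 CPM in the Ptbp1 and Ptbp2 knockdowns and 28.5 CPM in control. For Socs2 the library with the Ptbp2 knockdown alone was therefore the highest of the 4. Slc38a3, a glutamine transporter, had the largest ratio of exon reads among the named genes, 6.61 (5.77 to 7.61), from a low level: 6.10 CPM in the double knockdown, 3.84 and 1.60 CPM in the single knockdowns and 0.923 CPM in control. Its log2 difference in exon reads was 2.60, and 1.89 with a pseudocount of 1. Its rescaled FPKM was 2.45 in the double knockdown and 0.346 in control. On the log2(FPKM + 1) scale its difference was 1.36, below those of Catsper2 (1.85) and Ankrd45 (1.83). The added 1 shrinks differences at such low FPKM, so the smaller value does not mean that FPKM disagrees. E2f2, a cell-cycle transcription factor, had 91.2 CPM in the double knockdown and 39.9 CPM in control, and Txnip, which binds and inhibits thioredoxin, had 63.0 and 25.9 CPM. Rian, an imprinted non-coding RNA, had 18 CPM in the double knockdown and 6.48 CPM in control. The other named higher genes, with ratios from 2.30 to 2.88, were Fbxo48, Fkbp1b (a binding partner of ryanodine receptors), Tusc2, Kbtbd8 (an adaptor of a cullin ubiquitin ligase), Afmid (an enzyme of the kynurenine pathway) and Catsper2 (a calcium channel subunit known from sperm). Afmid, at 6.31 and 2.65 CPM, was less even along the gene than the rest, with a log2 difference of 0.41 over its first exons and 1.38 over its last exons.

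Flna encodes a filamin, which crosslinks actin filaments and anchors them at the membrane. It had 320 CPM in the double knockdown, 381 CPM in the Ptbp1 knockdown, 929 CPM in the knockdown of Ptbp2 and 1310 CPM in control, and the double knockdown kept 24.4% of control (24.2 to 24.6). Flna was thus low in the 2 libraries with the Ptbp1 shRNA. The spectrin gene Sptbn1, part of the membrane skeleton, had a different order: 248 CPM in the double knockdown, 480 CPM in the Ptbp1 knockdown, 206 CPM in the knockdown of Ptbp2 and 626 CPM in control.

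Ngfr, the low-affinity neurotrophin receptor p75, had 50.4 CPM in the double knockdown, 116 and 52.1 CPM in the Ptbp1 and Ptbp2 knockdowns and 167 CPM in control, 30.1% of control (29.6 to 30.7). Pmp22, a tetraspan protein of peripheral myelin, had 33.6 CPM in the double knockdown and 99.1 CPM in control, and its relative Emp1 had 13.4 and 43.6 CPM. Ngfr in the double knockdown was close to the Ptbp2 knockdown, and Emp1, with 19.3 CPM in the Ptbp1 knockdown and 37.8 CPM in the Ptbp2 knockdown, was closer to the Ptbp1 knockdown. Stmn2, a neuronal protein that destabilises microtubules, had 67.5 CPM in the double knockdown, 105 CPM in each single knockdown and 161 CPM in control. Lypla1, which removes palmitate from proteins, had 33.0 CPM in the double knockdown, 92.9 and 25.9 CPM in the Ptbp1 and Ptbp2 knockdowns and 98.6 CPM in control. Cyp51, the lanosterol demethylase of cholesterol synthesis, showed 111 CPM in the double knockdown, 220 and 96.8 CPM in the single knockdowns and 291 CPM in control. Lypla1 and Cyp51 were lowest in the knockdown of Ptbp2 alone. The remaining named genes kept 32.9% to 40.7% of control: Aldh7a1 (a dehydrogenase of lysine breakdown), Ank (a pyrophosphate transporter), Aga (a lysosomal hydrolase of glycoproteins), Ssr1 (a subunit of the translocon-associated complex of the endoplasmic reticulum) and Anxa6 (a calcium-dependent membrane-binding annexin).

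**Figure D1:**
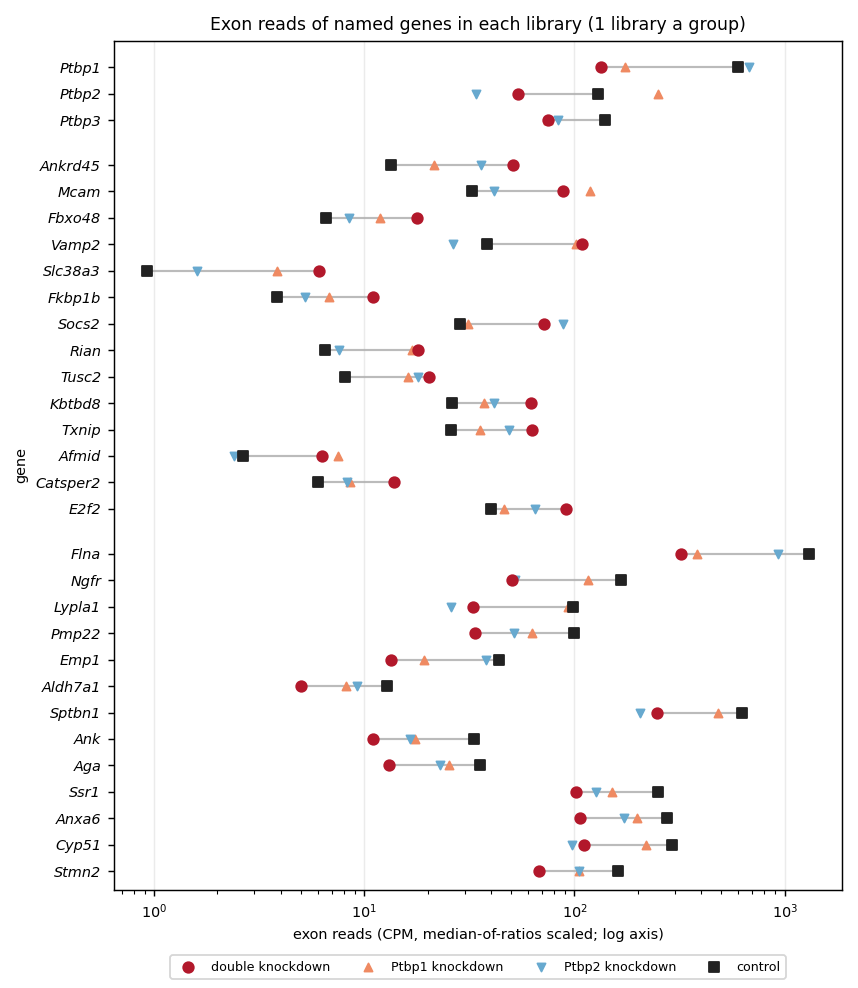
Exon reads in CPM on a log axis for the 3 PTB genes, the higher genes and the lower genes named in the text, with 1 point for each of the 4 libraries and a grey line between double knockdown and control. Ptbp2 is the only one of the 3 PTB genes whose Ptbp1 knockdown point (250 CPM) lies above control (129 CPM), and Slc38a3 starts from the lowest control level (0.923 CPM).

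Among gene lists, those of the actin cytoskeleton and of cholesterol synthesis had the lowest medians in exon reads of the lists with more than 10 measured genes. In FPKM the actin list, at -0.23, lay above those of fatty acid synthesis (-0.28) and hypoxia (-0.26). Of 34 measured actin cytoskeleton genes, 9 were past 2-fold lower in exon reads and 0 higher, beside 1.48% and 1.39% of all genes, and 4 of the 9 were lower in FPKM as well. Above control lay 5 of them, beside 46.5% of all 10615 genes (4936), and the median log2 difference was -0.43 against -0.03 over all genes. Besides Flna these included Iqgap1, a scaffold that binds actin and calmodulin (85.9 CPM in the double knockdown, 325 CPM in control), the pointed-end capping gene Tmod3 (43.4 and 112 CPM), the intermediate filament Vim (650 and 1372 CPM) and the actin- and myosin-binding Cald1 (50.4 and 107 CPM). The cytoplasmic actins did not reach 2-fold: Actb had 1631 CPM in the double knockdown and 3078 CPM in control, and Actg1 had 1872 and 3518 CPM. Among the members above control was Zyx (zyxin, of focal adhesions), with 167 CPM in the double knockdown and 128 CPM in control. The transcription factor Srf, closer to control, had 55.7 and 59.9 CPM. Tpm3 was past 2-fold lower in exon reads (134 and 297 CPM) but had a log2 difference of 1.04 in FPKM, so its direction is uncertain. The median of the list stayed below 0 under the other scalings, between -0.37 and -0.23.

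Of 24 measured genes of cholesterol synthesis and uptake, 3 were past 2-fold lower, 0 were higher and 1 lay above control, with a median of -0.51. Over all genes the shares were 1.48% lower, 1.39% higher and 46.5% above control. The 3 lower genes were Lss, Cyp51 and Nsdhl. Lss, the lanosterol synthase, had 58.7 CPM in the double knockdown and 163 CPM in control. Nsdhl, a sterol dehydrogenase, had 24.3 and 53.4 CPM. Srebf2, the transcription factor of the pathway, had 388 CPM in the double knockdown and 570 CPM in control. Of the 16 fatty acid synthesis genes, 0 were called in either direction and 1 lay above control. Scd2, a stearoyl-CoA desaturase, had 1001 CPM in the double knockdown and 1767 CPM in control, and Fasn, the fatty acid synthase, had 553 and 760 CPM. The medians stayed below 0 under every scaling tried, from -0.51 to -0.36 for cholesterol and from -0.35 to -0.20 for fatty acids.

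Several lists of abundant genes also lay below control, by less. Of 21 glycolysis genes, 2 were past 2-fold lower, beside 1.48% of all genes, 0 were higher, and the median was -0.34. The 2 were Aldoc, a brain aldolase (9.56 CPM in the double knockdown, 24.3 CPM in control), and Mpc1, a mitochondrial pyruvate carrier subunit, at 60.6 and 132 CPM. Mpc1 had a log2 difference of only -0.06 in FPKM. None of 9 heat shock genes, 32 ribosomal protein genes and 26 SR and hnRNP genes was called in either direction, although 0, 1 and 2 of them lay above control, with medians of -0.30, -0.19 and -0.21. These values stand beside a median of -0.13 over all 2337 genes with a mean of 100 CPM or more, so abundant genes as a class lay below the median of all genes in exon reads. In FPKM the same 2337 genes had a median of 0, the SR and hnRNP list also 0, the heat shock list -0.11, the ribosomal list -0.09 and the glycolysis list -0.10.

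Neuronal lists had medians close to that of all genes. Of 40 measured synapse and axon genes, 3 were past 2-fold higher (among them Vamp2 and the postsynaptic scaffold Shank3), 2 were lower (Stmn2 and the microtubule-associated Map1b), 20 lay above control, and the median was 0.02. All genes had shares of 1.39% higher, 1.48% lower and 46.5% above control. Shank3 had 2.79 CPM in the double knockdown and 0.930 CPM in control, and Map1b had 820 and 1643 CPM. The GABA-B receptor gene Gabbr1 had 60.8 CPM in the double knockdown and 35.1 CPM in control. The vesicle priming genes Cplx1 (99.2 and 169 CPM) and Cplx2 (19.2 and 33.1 CPM) lay on the other side without reaching 2-fold. Of 14 catecholamine genes only Ddc, the aromatic amino acid decarboxylase, was called, with 17.6 CPM in the double knockdown and 6.71 CPM in control. Dbh, which makes noradrenaline, had 45.9 and 43.7 CPM. Of 18 other splicing regulators, 1 was called: Mbnl1, a regulator of developmental splicing, at 62.8 CPM in the double knockdown and 127 CPM in control. Srrm4, a neural activator of microexons, had 23.6 CPM in the double knockdown and 24.7 CPM in control, Rbfox2 had 177 and 176 CPM, and Nova2 had 41.6 and 41.0 CPM.

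Of 37 cell-cycle and replication genes, 1 was called (Tyms, the thymidylate synthase, lower), and 15 lay above control. For this and the next lists, the shares over all genes were 1.39% higher, 1.48% lower and 46.5% above control. Of 14 interferon-response genes, Ifit2 (3.49 CPM in the double knockdown, 1.56 CPM in control) and Mx1 (3.67 and 1.68 CPM) were higher and 0 were lower, both from low levels. Of 19 p53 and apoptosis genes, Bcl2l11 (the BH3 protein Bim) was higher and Ccng1 (cyclin G1) lower. None of these 4 interferon and p53 genes reached 2-fold in FPKM. None of 19 endoplasmic reticulum stress genes was called in either direction.

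**Figure D2:**
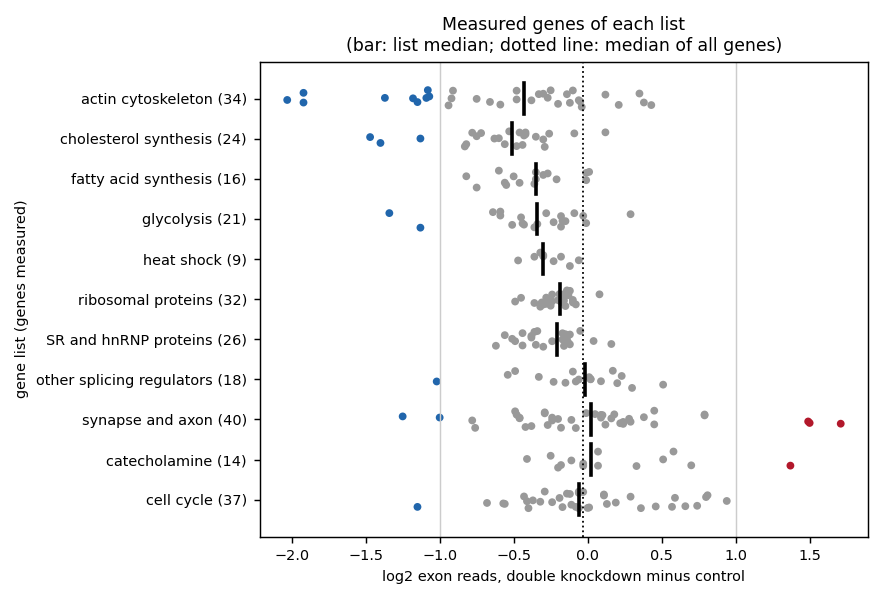
Log2 difference in exon reads, double knockdown minus control, with 1 point for each measured gene of 11 lists, red at 1 or more and blue at -1 or less. The bars mark list medians, which are -0.43 for the actin cytoskeleton, -0.51 for cholesterol synthesis and 0.02 for synapse and axon genes, and the dotted line marks the median of all genes at -0.03.

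Exon inclusion was taken from the reads across the 3 junctions of a cassette exon, as the share of inclusion reads (averaged over the 2 junctions that flank the exon) among inclusion and skipping reads, where both libraries had 20 or more of them. Of 102338 cassette exons measured, 346 (0.338%) were higher by 20 points or more in the double knockdown and 249 (0.243%) were lower. By 20 points in the deposited SpliceTrap ratio as well, 307 (0.300%) were higher and 206 (0.201%) lower. Of 4870 exons that were alternative in control, between 5% and 95% inclusion, 294 (6.04%) were higher and 220 (4.52%) lower. Larger shifts were mostly upward: 130 exons were higher by 40 points or more against 48 lower. An inclusion of 50% or more in the double knockdown against 10% or less in control was seen for 49 exons, and 50% or less in the double knockdown against 90% or more in control for 9 exons.

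Over the 346 higher exons the median inclusion was 69.0% in the double knockdown, 52.6% in the Ptbp1 knockdown, 23.8% in the knockdown of Ptbp2 and 23.2% in control. Over the 249 lower exons it was 46.9% in the double knockdown, 62.9% in the Ptbp1 knockdown, 67.5% in the knockdown of Ptbp2 and 80.2% in control. The exons were chosen by the difference between double knockdown and control, so those end values are given as a description. The single knockdown medians cover only exons with 20 or more junction reads in that library. In the Ptbp1 and Ptbp2 knockdowns these were 339 and 338 of the higher exons and 241 and 237 of the lower ones.

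Short exons were called more often than long ones, and mostly as higher. Of 591 measured exons of 27 nucleotides (nt) or less, 68 (11.5%) were higher and 8 (1.35%) were lower, against 0.338% and 0.243% of all exons. The contrast was smaller among exons between 5% and 95% in control. There 58 of 191 short exons (30.4%) were higher and 8 (4.19%) lower, against 6.04% and 4.52% of all 4870 such exons. Of exons of 28 to 50 nt, 61 of 3543 (1.72%) were higher and 25 (0.706%) lower. Above 100 nt the shares of higher and lower exons lay closer together, for example 75 (0.210%) and 69 (0.193%) of 35702 exons of 101 to 150 nt. Of the 68 higher short exons, 64 (94.1%) had a length divisible by 3 and so keep the reading frame, against 61.8% of all measured exons of that length. Among short exons between 5% and 95% in control the excess was smaller, with 96.6% of the higher and 88.5% of all measured ones keeping the frame. Over all lengths 76.9% of the higher exons kept the frame, against 57.8% of the lower ones and 38.9% of all measured exons. Among exons of all lengths between 5% and 95% in control these shares were 75.5%, 58.6% and 47.9%, so the contrast was smaller there too. Junction reads of exons of 27 nt or less were unequal in both libraries: the junction on the left in the genome held 7.05 times the reads of the right one in the double knockdown and 7.22 times in control, while exons over 100 nt were balanced. With the lower of both junctions in place of their mean, 387 exons of 27 nt or less could be measured, 41 higher and 4 lower.

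**Figure D3:**
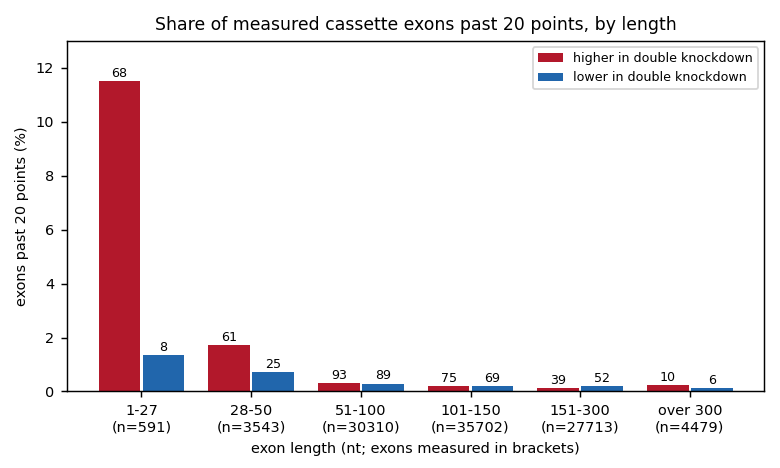
Share of measured cassette exons that were higher (red) or lower (blue) by 20 points or more in the double knockdown than in control, by exon length, with the number of such exons above each bar. The share of higher exons is 11.5% at 27 nt or less and 1.72% at 28 to 50 nt.

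The following sequences are 3 short exons with large differences in inclusion and 3 pairs of short exons from related genes, all higher in the double knockdown. Capitals mark the exon and lower case the last and first 12 bases of its neighbours in the spliced transcript, 5′ to 3′ (GENCODE vM21 transcripts; exon positions are mm9).
Ap1b1, 21 nt, chr11:4933245-4933265: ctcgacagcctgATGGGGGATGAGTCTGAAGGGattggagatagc
Tmem184b, 21 nt, chr15:79194088-79194108: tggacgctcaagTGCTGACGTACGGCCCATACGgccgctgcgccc
Fnbp1, 15 nt, chr2:30900402-30900416: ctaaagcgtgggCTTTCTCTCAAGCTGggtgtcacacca
Tenm4, 21 nt, chr7:104003227-104003247: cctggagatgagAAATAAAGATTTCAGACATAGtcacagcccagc
Tenm3, 21 nt, chr8:49372487-49372507: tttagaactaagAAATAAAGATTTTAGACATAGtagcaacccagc
Tnik, 24 nt, chr3:28524121-28524144: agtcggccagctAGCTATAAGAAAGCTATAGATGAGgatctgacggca
Mink1, 24 nt, chr11:70422910-70422933: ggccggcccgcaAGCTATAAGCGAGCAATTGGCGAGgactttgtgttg
Clasp1, 24 nt, chr1:120438252-120438275: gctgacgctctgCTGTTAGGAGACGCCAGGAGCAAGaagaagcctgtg
Clasp2, 24 nt, chr9:113787868-113787891: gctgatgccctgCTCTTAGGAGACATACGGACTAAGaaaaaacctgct
The exons of Tenm3 and Tenm4 share 20 of 21 bases, those of Tnik and Mink1 18 of 24, and those of Clasp1 and Clasp2 17 of 24. These exons were picked after their values were seen.

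In each of these pairs both exons were more included in the double knockdown, although from different levels. The teneurins are transmembrane adhesion proteins of neurons. The Tenm4 exon had 67.9% inclusion in the double knockdown (49.3 to 82.1), 14.9% in the Ptbp1 knockdown, 5.08% in the knockdown of Ptbp2 and 1.82% in control (0.193 to 15.1). The Tenm3 exon had 53.8% (46.7 to 60.8) in the double knockdown, 38.9% and 16.5% in the Ptbp1 and Ptbp2 knockdowns and 13.7% (10.6 to 17.6) in control. Tnik and Mink1 are kinases of one family that act on the cytoskeleton. The exon of Tnik had 83.7% in the double knockdown, 70.7% and 32.1% in the single knockdowns and 37.1% in control, and that of Mink1 had 91.5%, 85.7%, 66.4% and 63.8% in the same order. The microtubule plus-end proteins Clasp1 and Clasp2 had 83.1% and 64.6% in the double knockdown and 45% and 22.8% in control for the exons shown. A further pair is formed by the adhesion receptors Adgrl2 (12 nt, 66.9% in the double knockdown and 8.92% in control) and Adgrl1 (15 nt, 67% and 38.6%).

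The other 3 exons shown are named by the rule for the largest differences. Ap1b1 encodes the beta subunit of the AP-1 clathrin adaptor. Its exon had 71.8% inclusion in the double knockdown (67.5 to 75.7; 570 and 96 reads on the inclusion junctions, 131 on the skipping junction) and 0.401% in control (5 and 0 reads, 621 skipping). It had 15.4% in the Ptbp1 knockdown and 0.399% in the Ptbp2 knockdown, so the inclusion in the double knockdown was far above that of either single knockdown. With the lower of both inclusion junctions the difference from control was 42.3 points in place of 71.4. Fnbp1, an F-BAR protein that bends membranes, had 77.5% in the double knockdown (72.2 to 82.1), 56.1% and 4.78% in the Ptbp1 and Ptbp2 knockdowns and 8.57% (5.75 to 12.6) in control, a difference of 68.9 points that became 43.5 with the lower junction. Tmem184b had 82.4% (78.0 to 86.1) in the double knockdown, 56.1% and 12.5% in the single knockdowns and 9.94% (7.20 to 13.6) in control, 72.5 points apart and 54.6 with the lower junction. Further higher short exons, picked after their values were seen, were those of Exoc1, an exocyst subunit (63.1% in the double knockdown, 5.03% in control), Dctn1 of dynactin (73.8% and 25.6%), the cytolinker Plec (62.5% and 4.67%), Daam1, a formin (82.0% and 20.8%), and the axonal adhesion molecule L1cam, whose 12-nt exon had 63.4% and 19.1%. The Plec and L1cam values rest on 1 inclusion junction, since the other had 0 reads in double knockdown and control alike.

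Over the 68 higher short exons the median was 66.9% in the double knockdown, 54.3% in the Ptbp1 knockdown, 19.6% in the knockdown of Ptbp2 and 17.9% in control. The 8 lower ones included Picalm, a clathrin assembly protein, whose 24-nt exon had 7.20% in the double knockdown, 32.0% in the Ptbp1 knockdown, 10.6% in the knockdown of Ptbp2 and 31.2% in control. These Picalm values rest on 1 inclusion junction, since the other had 0 reads in every library. In Picalm and in Dst (an 18-nt exon, 67.5%, 94.3%, 34.9% and 93.7% in the same order) the Ptbp1 knockdown was close to control and the low values were in the 2 libraries with the Ptbp2 shRNA. Nckap1, a subunit of the WAVE complex, differed from this: its 18-nt exon had 27.6% in the double knockdown and 64.9%, 62.5% and 65.5% in the other 3 libraries.

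**Figure D4:**
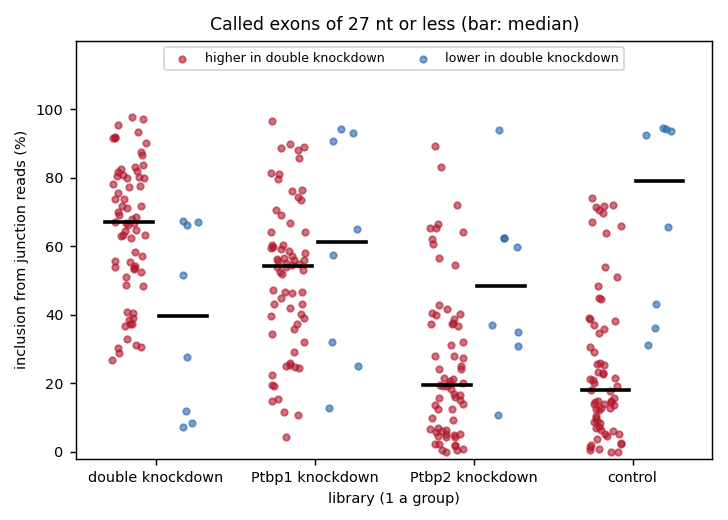
Inclusion in each library of the 68 exons of 27 nt or less that were higher (red) and the 8 that were lower (blue) by 20 points or more in the double knockdown than in control. The bars mark medians, which for the higher exons are 66.9% in the double knockdown, 54.3% in the Ptbp1 knockdown, 19.6% in the knockdown of Ptbp2 and 17.9% in control.

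Exons over 27 nt made up the rest of the named higher exons. The leading one was a 45-nt exon of Atp8a1, a phospholipid flippase, shown with the same use of capitals because it has the largest difference of the named exons, with a 42-nt exon of Dpf2, a chromatin remodelling subunit of the BAF complex.
Atp8a1, 45 nt, chr5:68147889-68147933: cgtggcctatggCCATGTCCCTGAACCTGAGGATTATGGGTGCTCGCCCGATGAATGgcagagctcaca
Dpf2, 42 nt, chr19:5903731-5903772: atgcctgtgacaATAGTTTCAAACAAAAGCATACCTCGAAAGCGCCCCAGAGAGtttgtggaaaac
The Atp8a1 exon had 85.1% inclusion in the double knockdown (76.9 to 90.8), 50.4% in the Ptbp1 knockdown, 2.63% in the knockdown of Ptbp2 and 3.34% in control (1.49 to 7.33). The Dpf2 exon had 77.7% in the double knockdown (74.5 to 80.6), 65.5% and 6.61% in the Ptbp1 and Ptbp2 knockdowns and 10.1% in control (8.19 to 12.4). For both exons the Ptbp2 knockdown was slightly below control, with overlapping intervals.

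Ap2a1, the alpha subunit of the AP-2 adaptor, had a 66-nt exon at 64.5% in the double knockdown (58.8 to 69.8), 39.1% in the Ptbp1 knockdown, 1.52% in the knockdown of Ptbp2 and 1.08% in control. Itsn2, an endocytic scaffold, had an 81-nt exon at 63.4% (57.8 to 68.6) in the double knockdown and 34.3% in the Ptbp1 knockdown. In control that exon had 0 inclusion reads beside 362 skipping reads, which allows up to 1.05%, and the Ptbp2 knockdown also had 0. Itprid2 showed the same pattern with a 177-nt exon, at 66.1% in the double knockdown, 42.5% in the Ptbp1 knockdown and 0 of 108 reads in control.

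Most named higher exons held an intermediate value in the Ptbp1 knockdown. Cers5, a ceramide synthase, had a 107-nt exon that shifts the frame at 73.5% in the double knockdown (71.4 to 75.6), 62.3% in the Ptbp1 knockdown, 2.00% in the knockdown of Ptbp2 and 3.74% in control (3.06 to 4.55), the deepest of the 15 in reads. Ptch1, the hedgehog receptor, had a frame-shifting 127-nt exon at 84.0% in the double knockdown, 54.5% and 9.03% in the single knockdowns and 13% in control. Anxa7, an annexin, had a 66-nt exon at 78.5%, 57.3%, 2.69% and 3.52% in the same order. Ralgapa1, which inactivates Ral GTPases, had a 141-nt exon at 76.1% in the double knockdown and 6.82% in control. The Ptbp1 knockdown covered at least 50% of the difference between control and double knockdown in 13 of the 15 named higher exons, and the Ptbp2 knockdown in 0 of them.

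The 2 exceptions were Ap1b1 and Socs7. Socs7, of the suppressor of cytokine signalling family, had a 102-nt exon at 82.8% in the double knockdown (76.6 to 87.6), 21.5% in each single knockdown and 10.1% in control (5.96 to 16.7). Slc8a1, a sodium-calcium exchanger, and Dennd3, an activator of a Rab GTPase, had frame-shifting exons that stood above control in both single knockdowns. The Slc8a1 exon had 78.3% in the double knockdown, 72.4% in the Ptbp1 knockdown, 28% in the knockdown of Ptbp2 and 9.38% in control. In the double knockdown its inclusion junctions were unequal, with 35 and 240 reads, beside 38 skipping reads, and the difference from control of 69.0 points became 40.5 with the lower junction. The Dennd3 exon had 77.6%, 42.3%, 19.7% and 6.87% in the same library order.

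Exons that were lower in the double knockdown were longer, with a median of 103 nt against 72 nt for the higher ones and 122 nt for all measured exons. A 39-nt exon of Tmem63b, a mechanosensitive ion channel, is shown because control had no skipping read.
Tmem63b, 39 nt, chr17:45815912-45815950: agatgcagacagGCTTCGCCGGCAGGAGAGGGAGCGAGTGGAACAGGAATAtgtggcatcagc
It had 21.5% inclusion in the double knockdown (16.6 to 27.4), 89.5% in the Ptbp1 knockdown, 92.6% in the knockdown of Ptbp2 and 100% in control (97.6 to 100). Both single knockdowns were thus near control, and the double knockdown had 175 skipping reads where control had 0.

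Flnc, a filamin whose exon reads were alike in both libraries (67.3 and 70.4 CPM), had a 99-nt exon at 17.5% in the double knockdown (11.9 to 25), 30.4% in the Ptbp1 knockdown, 91.0% in the knockdown of Ptbp2 and 86.6% in control (78.4 to 92.0). Eml4, a microtubule-binding protein, had a 174-nt exon at 33.3% (29.3 to 37.6) in the double knockdown, 64.8% and 92.4% in the single knockdowns and 97.3% (95.5 to 98.4) in control. Immt, which organises the inner membrane of mitochondria, had a 138-nt exon at 19.8% (17.6 to 22.1), 50.3%, 87.8% and 87.6% in the same order. In these 3 exons the Ptbp2 knockdown was within 5 points of control and the Ptbp1 knockdown lay between control and double knockdown.

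In another set of lower exons both single knockdowns were below control. Scarb1, the receptor for high-density lipoprotein, had a 129-nt exon at 26.0% in the double knockdown (23.4 to 28.9), 50.1% in the Ptbp1 knockdown, 51.8% in the knockdown of Ptbp2 and 81.8% in control (79.3 to 84.0). Synrg, a partner of the AP-1 adaptor, had a 234-nt exon at 9.90% in the double knockdown, 18% and 29.2% in the single knockdowns and 61.5% in control. Dtx2, a ubiquitin ligase of the Notch pathway, had a 138-nt exon at 9.47%, 35.1%, 49.6% and 72.8% in the same order, and Golim4, a Golgi protein, an 84-nt exon at 32.2%, 53.5%, 52.6% and 76.7%. Over the 15 named lower exons, the Ptbp1 knockdown covered at least 50% of the difference in 10 and the Ptbp2 knockdown in 3. Ptprf, a receptor tyrosine phosphatase of axons, had a 579-nt exon at 41.3% in the double knockdown and 97.8% in control, and Mavs, the adaptor of antiviral RNA sensing, had a frame-shifting 178-nt exon at 46.7% and 94.6%. A 73-nt exon of Dpf2, at 48.9% and 94.6%, rested on 1 of its inclusion junctions, with 150 and 1 reads in the double knockdown and 697 and 0 reads in control. That junction joins the same sites as the skipping junction of the 42-nt Dpf2 exon (158 and 722 reads). The lower value is therefore not independent of the higher 42-nt exon, although it is counted among the 15. A 79-nt form of the 73-nt exon differed by -10.4 points. Arhgap39, Cspp1, Pdzd4 and Mpzl1 complete the 15.

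**Figure D5:**
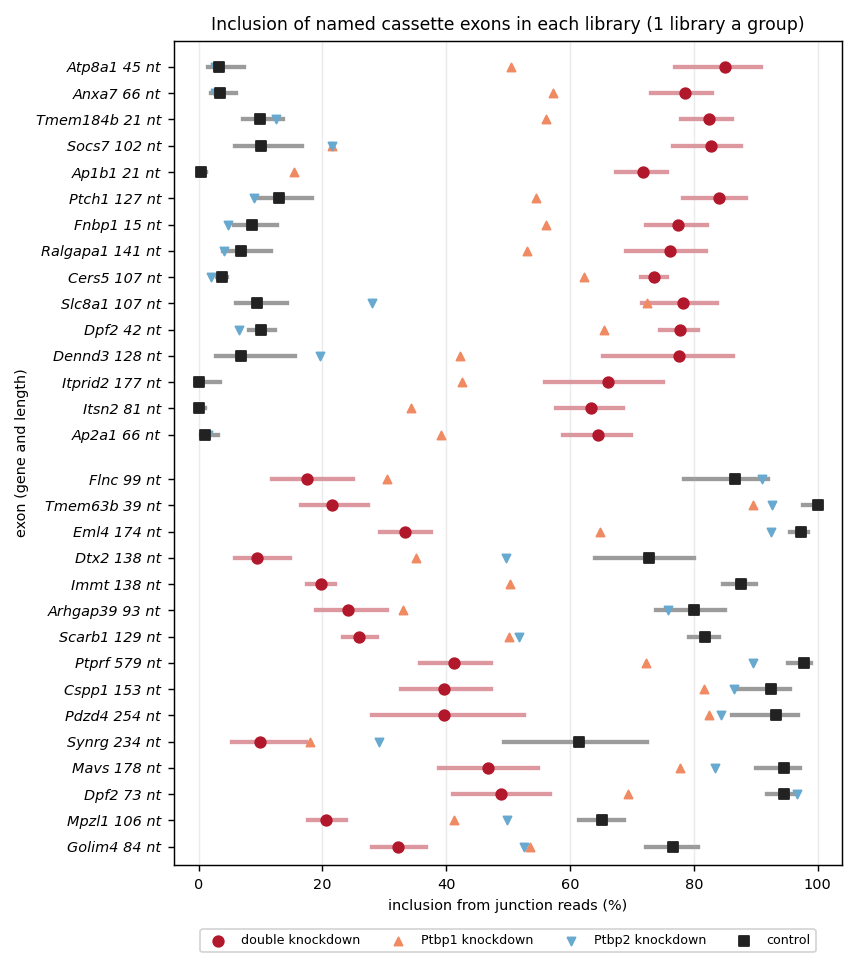
Inclusion from junction reads of the 15 named higher and 15 named lower cassette exons, with 1 point for each of the 4 libraries and 95% Wilson intervals as bars for double knockdown and control. No interval of the double knockdown overlaps that of control. Exons with both single knockdown points far from the double knockdown include Ap1b1, Socs7, Tmem63b, Cspp1 and Pdzd4.

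Known targets of PTB proteins were looked up as a list of genes, chosen with results of these data known. Of 63 such genes with a measured exon, 33 (52.4%) had at least 1 exon past 20 points in either direction, against 488 of all 9788 genes (4.99%). The listed genes and the rest differ in exon number and depth, for which no matching was done, and any cassette exon of a gene counted. The list also holds Atp8a1, Ap1b1, Ap2a1 and Ptprf, which are among the named exons above. Since it was chosen with results known, these shares are a description only. The apoptosis effector Bak1 had a frame-shifting 20-nt exon at 66.9% (58.8 to 74.1) in the double knockdown and 12.7% (9 to 17.7) in control. Its sequence is shown because the exon is known to switch the gene's product in neurons.
Bak1, 20 nt, chr17:27158608-27158627: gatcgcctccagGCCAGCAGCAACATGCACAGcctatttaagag
Mbnl2 had a 36-nt exon at 56.7% in the double knockdown and 5.82% in control, and the 34-nt exon of Ptbp3 had 77.4% and 28%. A frame-shifting 34-nt exon of Ptbp2 did not reach 20 points. It had 84.5% in the double knockdown, 94.5% and 42.7% in the Ptbp1 and Ptbp2 knockdowns and 72.2% in control.

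Kif2a, a microtubule-depolymerising kinesin, had a 114-nt exon at 38.4% in the double knockdown, 51.6% in the Ptbp1 knockdown, 2.39% in the knockdown of Ptbp2 and 5.96% in control. Kif1b, an axonal transport kinesin, had an 18-nt exon that was higher (95.5% and 72.1% in double knockdown and control). That exon had 0 reads on 1 of its inclusion junctions in both. A 42-nt exon of Kif1b was lower, at 17.9% in the double knockdown (14.6 to 21.8), 72.8% and 57.1% in the single knockdowns and 65.9% (55.7 to 74.8) in control. The neuronal microtubule genes Map2 (93 nt, 20.3% in the double knockdown, 60.9% in control) and Mapt, which encodes tau (93 nt, 34.1% and 67.7%), were lower. For Mapt the Ptbp1 knockdown was at 80.4% and the Ptbp2 knockdown at 37.7%, so the low value was shared by the 2 libraries with the Ptbp2 shRNA. App, the amyloid precursor protein gene, had a 168-nt exon at 16.8% in the double knockdown (15.1 to 18.5), 25.8% in the Ptbp1 knockdown, 53.6% in the knockdown of Ptbp2 and 61.3% in control (58.8 to 63.7). Cltb, a clathrin light chain, had a 54-nt exon at 24.5%, 9.97%, 0.654% and 0.817% in the same order, so that its inclusion was highest in the double knockdown. Other listed genes had no exon past 20 points: the exon with the largest difference was at 99.0% in the double knockdown and 99.4% in control in Pkm (167 nt), and at 99.8% and 99.1% in Hnrnpll (122 nt). By the SpliceTrap ratio the Pkm exon had 93.8% and 98.2%. Junction inclusion counts as skipping only reads that join the exon's 2 neighbours directly. Exchange for another exon between those neighbours may therefore not show, and was not tested.

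Of the functional lists, synapse and axon genes held called exons in 8 of 36 genes (22.2%) and SR and hnRNP genes in 4 of 26 (15.4%), beside 4.99% of all genes. The 8 were Dlg4, Homer1, Gabbr1, Nlgn2, L1cam, Ncam1, Map2 and Mapt, of which Dlg4, Gabbr1, Map2 and Mapt are also on the list of known PTB exons. The 4 were Srsf9, Srsf11, Hnrnpa2b1 and Tia1. Genes of cholesterol synthesis (0 of 24), the cell cycle (0 of 37) and ribosomal proteins (0 of 32) held none, and the actin list held 3 of 34 (Actn1, Flnc and Pdlim7).

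Of 488 genes with a called exon, 6 (1.23%) were past 2-fold higher and 2 (0.410%) lower, with a median log2 difference of -0.07, against 0.501%, 1.41% and -0.04 over all 9783 genes with a measured exon. The 6 were Afmid, Tanc2, Fbxo48, Rapgefl1, Serp2 and Meg3, and the 2 were Ripk2 and Map4. Meg3, an imprinted non-coding RNA, had a log2 difference of 2.39 and an 81-nt exon at 7.69% in the double knockdown and 55.0% in control. The control value came from 20 junction reads, the minimum, with an interval of 34.2 to 74.2. Map4, a microtubule-associated protein, had a log2 difference of -1.05 and a 114-nt exon at 53.1% and 94.0%. Host genes of the higher short exons had a median of -0.03, with 0 of 64 called in either direction. Host genes of higher exons that shift the frame had a median of -0.02 over 73 genes, and those of lower exons that shift the frame had -0.10 over 96 genes.

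Higher exons of middle length were richer in C and T than other exons of that length. Over exons of 51 to 150 nt that matched GENCODE vM21 transcripts, the median share of C or T was 54.4% in 161 higher exons, 47.2% in 152 lower exons and 46.7% in all 64927 measured exons of that length. The 4-letter strings TCTT and CTCT, searched on the sense strand only and able to overlap each other, occurred in 49.1% and 60.2% of the higher exons, 25.7% and 32.2% of the lower exons, and 34.1% and 36.4% of all exons of that length. Over all lengths TCTT occurred in 35.8% of the higher, 28.2% of the lower and 39.6% of all measured exons, and CTCT in 45.8%, 35.3% and 43.7%, so that the higher exons did not exceed all exons in TCTT there. Among exons of 27 nt or less, the median share of C or T was 41.7% both in the higher exons and in all measured exons. Of the higher exons over all lengths 71.7% lay within coding sequence together with the 12 bases on either side, against 81.3% of the lower and 91.6% of all measured exons.

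Other kinds of splicing events were fewer, and were read from the deposited SpliceTrap ratio. Of 3263 alternative 3′ splice sites, 44 (1.35%) were higher by 20 points or more in the double knockdown and 15 (0.460%) lower. Of 1966 alternative 5′ splice sites, 25 (1.27%) were higher and 8 (0.407%) lower. Of 709 retained introns, 8 (1.13%) were higher and 5 (0.705%) lower.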

How the data were processed

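The 4 groups of N2A cells gave 1 strand-specific library each, read as paired 100-base reads per the labels. Per the submitters' processing notes, CASAVA, TopHat and Cufflinks were used on mm9; no version is given in the sources used here. Deposited SpliceTrap tables hold counts of junction reads, exon coverage (a signal, reads over exon size) and, per the file headers, an inclusion ratio (a fraction). The deposited Cufflinks tables hold FPKM with a status, and the deposited transcript files carry a score used for nothing here.

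Exon reads were coverage times size over 100, summed over unique exons of cassette trios by gene, each exon read from its trio with most reads, scaled by the median of ratios. Each FPKM was divided by the library's own sum of FPKM multiplied by transcript length, and compared as log2(FPKM + 1). Deposited FPKM was not on the usual scale, hence the rescaling. Of 218362 cassette trios, 95.5% were named through splice sites shared with RefSeq transcripts in the deposited files. An exon in several trios was measured in the trio with most reads over both libraries. Inclusion intervals are 95% Wilson intervals and ratio intervals are exact, both for counting error only. Coordinates are mm9, counted from 1. Exon sequences were matched to GENCODE vM21 transcripts (GRCm38) by intron and exon lengths. Python 3.11.15, pandas 2.3.3 and scipy 1.17.1 were used, and the counting was tested on simulated data.

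Named genes were the 15 in each direction with the largest smaller log2 difference of both measures, past 2-fold in both, with 5 CPM or more in either library and without predicted genes; some genes that meet this rule are not reported here. Named exons were the 15 in each direction with the largest smaller difference in junction inclusion and ratio and 50 or more junction reads in both libraries. From a gene list, called members and checks were named, and some values of uncalled members are given beside them. In the known list, the exon with the largest difference in a gene is given. The members and lists were chosen with earlier results of these data known. With 1 library a group there is no test.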

Additional observations from a re-analysis of the deposited data

How the results depend on the processing

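No paired analysis was possible because each group has 1 library, and for the same reason no replicate could be left out. The 148 higher genes became 53 with a pseudocount of 1, 263 with no minimum beyond 1 read, 56 with at least 5 CPM, 247 with scaling by total exon reads and 40 with 2-fold in rescaled FPKM as well. The 157 lower genes became 87 with scaling by total exon reads and 54 with 2-fold in both measures. Scaling by total reads moved the median of all genes to 0.12, against -0.03, which shifts every log2 difference upward alike. A difference of at least 40 points left 130 higher and 48 lower exons. The 20-point counts stayed within 1.5 times under the other settings: at least 50 or 10 junction reads, intervals that do not overlap, the SpliceTrap ratio, and, added after the data were seen, the lower of both inclusion junctions (311 higher, 307 lower). The difference of the 73-nt exon of Dpf2 became 1.25 points with the lower junction, since its other inclusion junction held 1 and 0 reads. Of the values of single genes and exons, 118 stayed within their counting interval and the others moved by more; the cause was not tested. Counting only 1 exon per overlapping cluster (149 and 157) and only genes with Cufflinks status OK (148 and 157), both also added later, gave like counts. Depth limits exons near the minimum of 20 reads most.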
